A study of Mus musculus with 29 samples.

Results

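Young serum was compared with young tibialis anterior muscle to describe which microRNAs (miRNAs) make up each source, over 10 of the 29 libraries of the study. The members were taken by their labels: young serum 1 to 5 and young muscle 1 to 5. All 10 came from C57BL/6 mice labelled as controls and 6 months old, and no allele or agent is named for either group. The tibialis anterior is a fast muscle of the lower leg, and serum is the fluid left after blood has clotted. Old libraries (24 months, control; 4 serum and 5 muscle) and disuse libraries (6 months, a model of wasting by disuse; 5 serum and 5 muscle), also C57BL/6, served to repeat the comparison. Muscle RNA was extracted with Trizol and 2 µg entered each library, while serum RNA came from 300 µl through a serum kit and 10 ng entered each library. Source, extraction and input therefore cannot be told apart. The labels do not say whether numbered samples are separate animals, or whether serum and muscle of the same number came from 1 animal, so a p-value speaks only of the scatter of these samples, part of which can be technical.

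miRNAs are short RNAs that guide repression of messenger RNAs, mainly through pairing of their seed, the bases near the 5′ end. Many are made by few cell types, so a tissue or fluid can be described by classes of miRNAs with a known main source. Muscle fibres make the myomiRs (miR-1, miR-133 and miR-206), red cell precursors make miR-451a and miR-144, and white blood cells make miR-142 and miR-223. The liver makes miR-122, and epithelia make the miR-200 family and miR-205. Serum carries miRNAs released by blood cells and many organs, bound to proteins or enclosed in vesicles.

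The sequences of the miRNAs on which the differences below turn are printed from RefSeq (build GRCm38.p6), 5′ to 3′, with the seed, bases 2 to 8, in capitals. The first set was more abundant in serum. miR-10b and miR-10a share their seed and differ by U12A (miR-10a base, position from the 5′ end, miR-10b base).
miR-10b-5p: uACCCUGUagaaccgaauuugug
miR-10a-5p: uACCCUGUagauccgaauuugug
miR-191-5p: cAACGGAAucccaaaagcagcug
miR-146a-5p: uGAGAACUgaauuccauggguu
miR-146b-5p: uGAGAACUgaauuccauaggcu
miR-16-5p: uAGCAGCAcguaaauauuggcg
miR-451a: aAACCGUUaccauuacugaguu
miR-223-3p: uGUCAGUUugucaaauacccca
miR-192-5p: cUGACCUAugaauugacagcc
miR-215-5p: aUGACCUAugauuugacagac
miR-184-3p: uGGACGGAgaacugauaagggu
miR-205-5p: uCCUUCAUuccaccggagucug
miR-200b-3p: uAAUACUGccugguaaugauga
miR-429-3p: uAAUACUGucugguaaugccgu
miR-141-3p: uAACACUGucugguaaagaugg

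miR-146a and miR-146b share a seed, as do miR-192 and miR-215, and miR-200b and miR-429. The second set was more abundant in muscle. let-7a and let-7c share their seed and differ by A19G (let-7a base, position, let-7c base).
miR-133b-3p: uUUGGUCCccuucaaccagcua
miR-206-3p: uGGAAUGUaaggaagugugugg
let-7a-5p: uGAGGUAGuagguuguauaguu
let-7c-5p: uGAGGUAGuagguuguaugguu
let-7d-5p: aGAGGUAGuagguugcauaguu
miR-149-5p: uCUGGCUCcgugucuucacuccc
miR-196a-5p: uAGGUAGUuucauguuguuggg
miR-155-5p: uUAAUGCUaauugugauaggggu

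Of the first set, miR-10b-5p lies at chr2:74726074-74726096 on the plus strand, in introns of Hoxd3 and Hoxd4. miR-10a-5p is at chr11:96317186-96317208, plus strand, outside other annotated genes. miR-451a, at chr11:78073186-78073207, is a near neighbour of miR-144-3p at chr11:78073047-78073066, both on the plus strand. miR-429-3p (chr4:156053916-156053937) and miR-200b-3p (chr4:156055685-156055706) lie on the minus strand within introns of Ttll10. miR-133b-3p (chr1:20682834-20682855) and miR-206-3p (chr1:20679055-20679076) both overlap exons of the long non-coding RNA gene Gm28653 on the plus strand. miR-149-5p is in an intron of Gpc1 at chr1:92850381-92850403, plus strand.

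The serum libraries held 68813 to 290818 counts (median 133658) and the muscle libraries 268350 to 2588831 (median 535754). Serum was thus the shallower source, with 276 to 397 miRNAs detected per library against 368 to 509. A count of 0 allows up to 10.3 to 43.6 CPM (counts over the library's own total, scaled up) in a serum library and 1.16 to 11.2 CPM in a muscle library, for counting error only. Of 695 miRNAs, 472 were detected in both sources, 76 in serum only, 84 in muscle only and 63 in neither. Libraries resembled each other within a source: across 190 miRNAs the correlation of log2 CPM was 0.939 to 0.973 between serum libraries and 0.975 to 0.991 between muscle libraries, against 0.454 to 0.52 between the sources. These points share the same miRNAs and are a description. The library labelled young serum 1 stood apart in miRNAs known from sensory organs and nervous tissue (miR-182, miR-183, miR-96, miR-184, miR-204, miR-211, miR-124 and miR-9, chosen after their values were seen). They made up 7.73% of its counts and 0.818 to 3.48% of those of the other 4 serum libraries. The sum was carried by miR-182-5p and miR-183-5p, at 3.78 and 2.19% of serum 1, while its miR-184-3p (1.3%) lay below that of serum 3 and 5. Without serum 1, 60 of 202 tested miRNAs were called for serum and 91 for muscle (edgeR adjusted p under 0.05), against 62 and 83 of 190 with it. The serum mean without it was 4.93 in place of 6.17% for the class of miR-21, miR-22, miR-101, miR-148 and miR-378, 1.89 in place of 2.41% for miR-181, and 2.69 in place of 3.88% for miRNAs in no class.

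A different miRNA led each source, and the leading share was larger in muscle when miR-486-5p and miR-3107-5p were counted apart. miR-133a-3p, the main myomiR, took 40.3, 45.8, 37.6, 43.2 and 49.4% of the counts of muscle 1 to 5. In serum, miR-486-5p, a product of muscle and of red cell precursors, led with 18.3, 25.3, 19.7, 34.8 and 23.5%. The share of the leading miRNA was lower in serum by 18.9 percentage points (24.3 ± 6.49 against 43.2 ± 4.61%, mean ± SD, n = 5 each), with no overlap between the groups (two-sided exact permutation p = 0.00794, the smallest that 5 against 5 can give, adjusted p = 0.0238 over 3 measures). The miR-486 and miR-3107 class, near-identical copies whose read split is uncertain, was 27.4 to 52.1% of a serum library. That range overlaps miR-133a-3p in muscle (37.6 to 49.4%), and the difference with these miRNAs joined was not tested. The effective number of miRNAs, the exponential of the Shannon entropy of the shares, was 23.6 ± 7.88 in serum and 15.3 ± 2.16 in muscle. This difference missed the threshold after adjustment (exact permutation p = 0.0397, adjusted p = 0.0595). At 68813 counts, the depth of the shallowest library, 290 ± 18.5 miRNAs are expected in serum and 280 ± 2.41 in muscle (exact permutation p = 0.405). The 15 most abundant miRNAs held 77.6% of serum and 81.8% of muscle counts, and 8 of the 15 (53.3% of each list) were on both lists: miR-486-5p, miR-3107-5p, miR-191-5p, miR-22-3p, miR-181a-5p, miR-92a-3p, miR-26a-5p and miR-27b-3p.

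**Figure D1:**
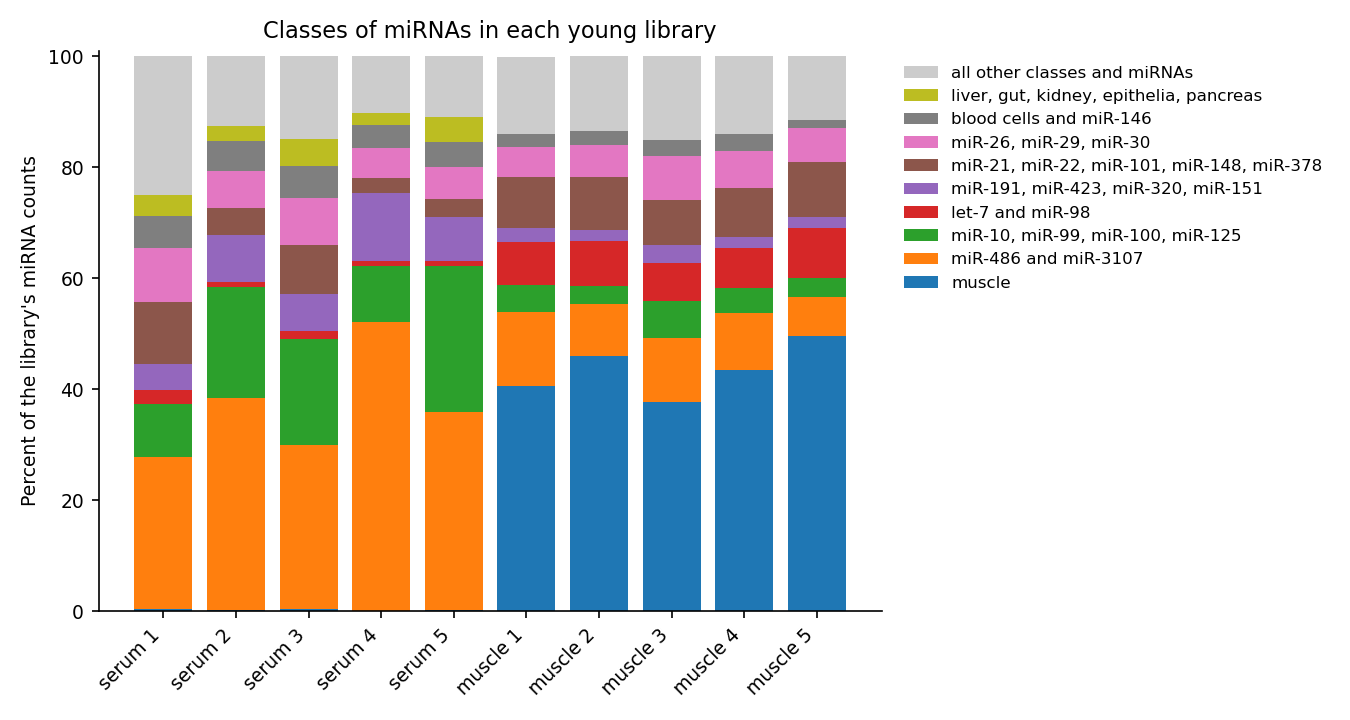
Stacked bars give the percent of each library's miRNA counts (vertical axis, from 0) in 9 groups of miRNAs and the remainder, for young serum 1 to 5 and young muscle 1 to 5. The myomiR segment takes 37.7 to 49.6% of every muscle bar and 0.065 to 0.475% of every serum bar, where it is too thin to see.

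Most miRNAs that could be tested differed between serum and muscle. After the filter on low counts 190 of the 695 miRNAs were tested with edgeR's quasi-likelihood test, and they held 99.6% of serum and 99.7% of muscle counts. At an adjusted p under 0.05, 145 were called (76.3% of those tested), 62 higher in serum (32.6%) and 83 higher in muscle (43.7%). The groups did not overlap for 117 of the 145, and 148 of 190 had an unadjusted p under 0.05. The miRNAs called for serum made up 76.1 ± 7.32% of serum counts and 14.9 ± 3.35% of muscle counts. Those called for muscle made up 77.3 ± 4.67% of muscle counts and 13.9 ± 6.13% of serum counts. Large differences were common: 40 of the 62 had a log2 fold change (serum over muscle) above 2, and 56 of the 83 one below -2.

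The split of calls depended on how libraries were scaled. Fold changes here use edgeR's TMM factors, with which the median of all tested miRNAs was -0.34. With library totals alone the median was 0.16, and 76 were called for serum (40% of those tested) and 68 for muscle (35.8%), 75.8% in all. Serum thus had 52.8% of the calls, against 42.8% with TMM. No called miRNA changed direction under any of the alternatives run. Percentages below are of library totals and need no such factor, so a fold change on the TMM scale lies below the ratio of the percentages.

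**Figure D2:**
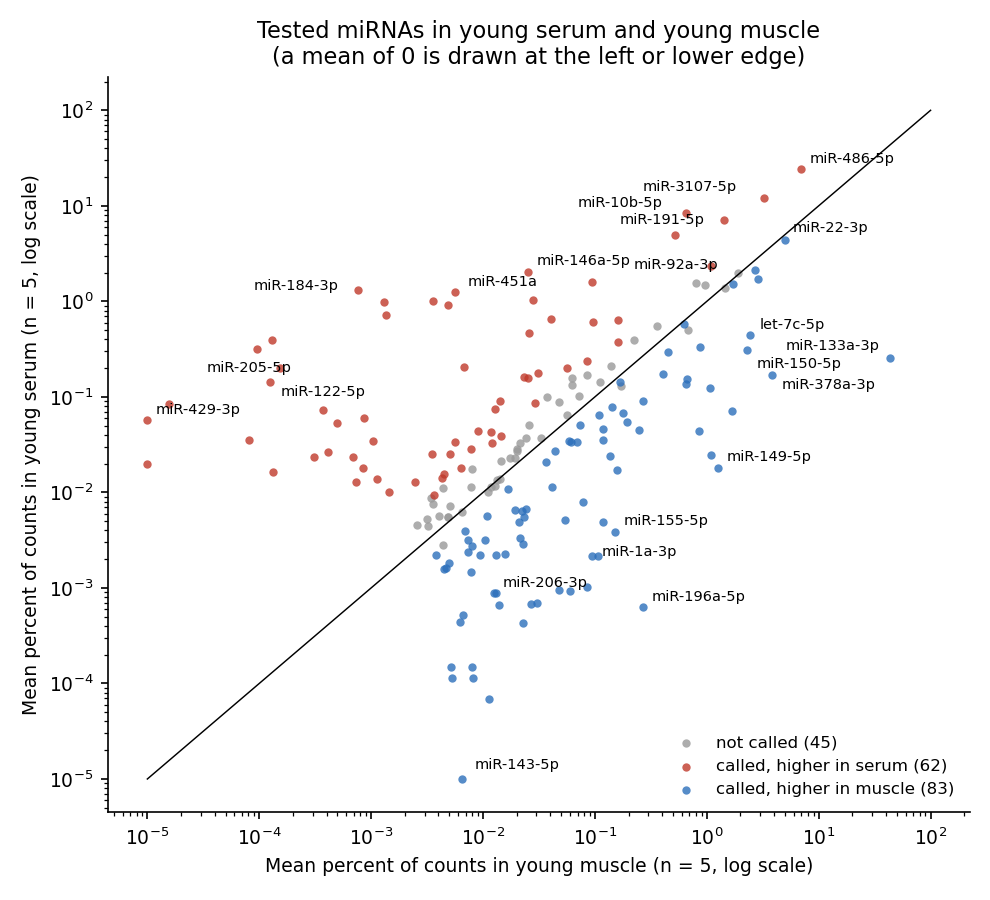
Each point is a tested miRNA, with its mean percent of counts in young muscle (horizontal) and in young serum (vertical), both on log scales, 5 libraries each; the line marks equal shares. The 62 called for serum reach far above the line at low muscle levels, the 83 called for muscle lie below it, and means of 0 (miR-429-3p in muscle, miR-143-5p in serum) are drawn at the edges.

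The myomiRs, which drive and maintain the muscle programme, all stood on the muscle side. Their class held 43.4 ± 4.63% of muscle counts and 0.263 ± 0.153% of serum counts, and 5 of its 5 tested members (of 9 listed) were higher in muscle, against 43.7% of all tested miRNAs (class median log2 -6.28, all tested -0.34). All but miR-133a-3p passed the filter on low counts through their muscle values, so this tally was largely fixed in advance. Without the filter 8 of 8 were called for muscle, beside 157 of all 632. In serum, miR-133a-3p was 0.464, 0.249, 0.31, 0.0612 and 0.186% of counts, while its lowest muscle library had 37.6%. Its log2 fold change was -8.10 ± 0.47 (SE; edgeR adjusted p = 4.33e-12). miR-133b-3p, from another locus, stood at 0.0848 ± 0.0158% of muscle and 0.00103 ± 0.000384% of serum (-6.81 ± 0.47). miR-1a-3p, the other classic muscle miRNA, took 0.139, 0.0927, 0.0604, 0.0616 and 0.113% of muscle 1 to 5, which ranked it only 55th in muscle. In serum it was 0, 0.00114, 0.0061, 0.000688 and 0.00291%, or 12 counts in 5 libraries (log2 -6.28 ± 0.60). miR-206-3p, the myomiR of satellite cells and slow fibres, was 0.0125 ± 0.00532% of muscle and 5 counts in all of serum (-4.73 ± 0.66). The muscle label thus matched its markers through miR-133a, while miR-1a and miR-206 were scarce.

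miR-486-5p and miR-3107-5p, which belong to the Ank1 locus and are active in muscle and in developing red cells, took the largest part of serum. Together with their other arms they were 36.6 ± 9.7% of serum counts, from 27.4 to 52.1%, and 10.4 ± 2.44% of muscle counts, from 6.98 to 13.5%. In muscle 1 to 5 miR-486-5p was 9.19, 6.3, 7.75, 6.99 and 4.66%, each below the lowest serum library (18.3%). Its log2 fold change was 1.44 ± 0.32 (edgeR adjusted p = 0.000445). miR-3107-5p took 12.2 ± 3.21% of serum and 3.22 ± 0.766% of muscle (1.57 ± 0.33). The count of miR-3107-5p stood in a near-fixed ratio to that of miR-486-5p, at 0.494 to 0.515 in the serum libraries and 0.453 to 0.473 in the muscle libraries. These miRNAs are near-identical copies, so how the authors' counting split reads between them is uncertain, and the 2 lines are not independent. The 3p arms of both moved the other way, as the account of arms below shows.

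Red cell and white cell miRNAs were mostly serum-rich, with 2 leukocyte miRNAs on the muscle side. The erythroid class was 1.28 ± 0.757% of serum (0.971 ± 0.34% without serum 1) and 0.00608 ± 0.00348% of muscle, and 3 of 3 tested members were higher in serum, where 32.6% of all tested miRNAs were. These members passed the filter on low counts through their serum values, so the tally was largely fixed in advance. miR-451a, which red cell precursors make without Dicer, was 2.45, 0.822, 1.45, 0.72 and 0.773% of serum 1 to 5. Its muscle values were 0.00522, 0.00493, 0.00266, 0.0116 and 0.00379%. The groups lay far apart, with a log2 fold change of 7.12 ± 0.48 (edgeR adjusted p = 4.19e-11). miR-144-3p and miR-144-5p, of the same transcript, had log2 fold changes of 5.47 ± 0.63 and 5.23 ± 0.56. miR-451a over miR-23a-3p, used as a sign of red cell lysis in serum, was on the log2 scale 1.54 to 3.57 in serum and -5.48 to -2.62 in muscle; its part in the serum profile was not tested.

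Among leukocyte miRNAs, 4 of 6 tested were higher in serum (32.6% of all tested) and 2 higher in muscle (43.7% of all tested), and the class sums overlapped (1.57 ± 0.296% of serum, 2.46 ± 0.652% of muscle). miR-142-5p, found across blood cell lineages, was 1.29, 1.23, 0.993, 1.03 and 0.535% of serum and 0.00447, 0.00618, 0.00143, 0.00261 and 0.00301% of muscle (log2 7.52 ± 0.50). miR-223-3p, a miRNA of neutrophils and platelets, was 0.0599 ± 0.0167% of serum and 0.000868 ± 0.000155% of muscle (5.41 ± 0.38). miR-142-3p (2.92 ± 0.42) and miR-342-3p (2.29 ± 0.40) were the other serum-rich members.

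On the muscle side stood miR-150-5p, a miRNA of mature lymphocytes, with 2.18, 2.49, 2.69, 2.76 and 1.21% of muscle 1 to 5, which made it the ninth most abundant there. Serum 1 to 5 had 0.303, 0.391, 0.252, 0.273 and 0.342% of it. Every muscle library was above every serum library (log2 -3.28 ± 0.33, edgeR adjusted p = 1.78e-08). miR-155-5p, induced in activated lymphocytes and macrophages, was 0.152 ± 0.032% of muscle and 0.00389 ± 0.00201% of serum (-5.74 ± 0.44). miR-142 and miR-223 were thus on the serum side, and miR-150 and miR-155 on the muscle side. In bulk RNA, fewer cells of a type and less RNA per cell cannot be told apart.

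miR-146a-5p, a feedback inhibitor of innate immune signalling, was among the 10 most abundant serum miRNAs. It took 1.26, 2.42, 2.53, 1.83 and 2.18% of serum 1 to 5. Muscle 1 to 5 had 0.0343, 0.0123, 0.0256, 0.0198 and 0.0339%, all far below (log2 5.90 ± 0.43, edgeR adjusted p = 1.52e-10). Its relative miR-146b-5p, with the same seed, was 0.206 ± 0.0964% of serum and 0.00672 ± 0.00227% of muscle (4.44 ± 0.43).

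**Figure D3:**
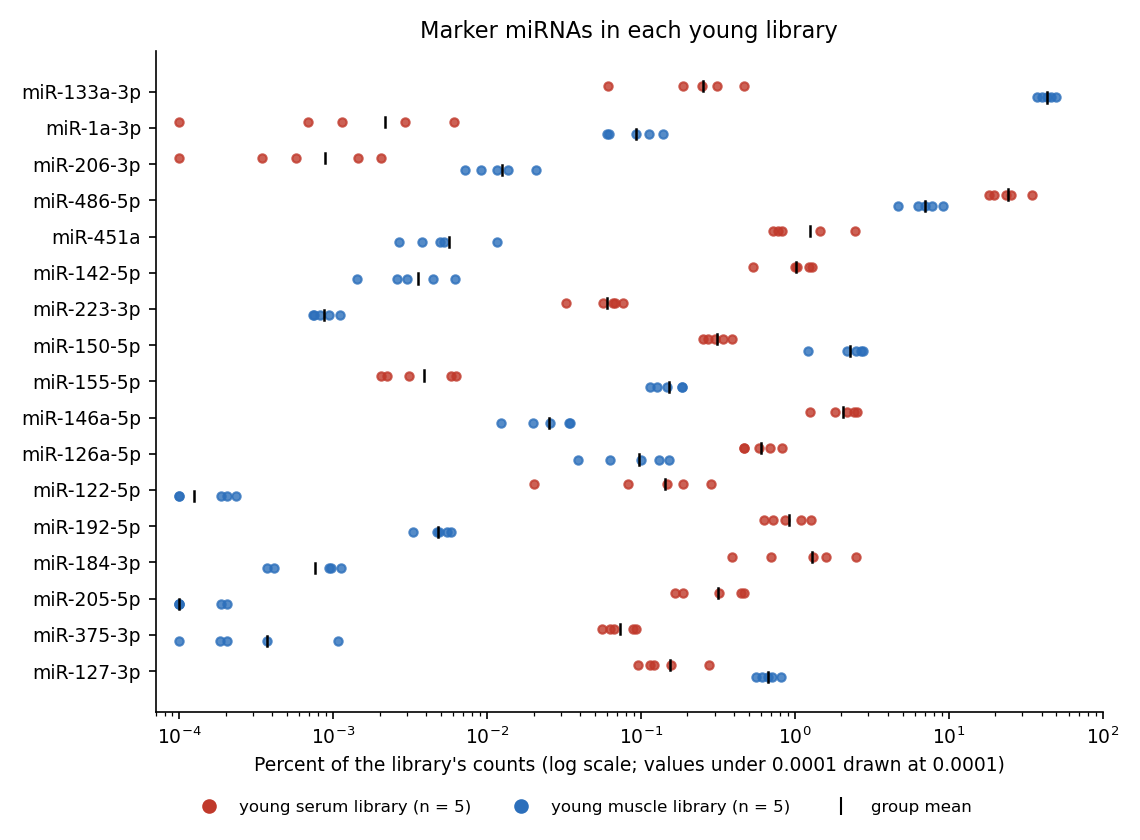
Points give the percent of a library's counts (log scale) of 17 marker miRNAs in each of 5 young serum and 5 young muscle libraries, and black ticks mark group means. The groups do not overlap for any of them: myomiRs, miR-150-5p, miR-155-5p and miR-127-3p are higher in muscle, the others in serum.

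Epithelial, liver and gut miRNAs formed a part of serum that was very scarce in muscle. The epithelial class was 2.07 ± 1.03% of serum (1.96 ± 1.15% without serum 1) and 0.00166 ± 0.000815% of muscle, and 8 of 8 tested members (of 14 listed) were higher in serum, where 32.6% of all tested miRNAs were. These members passed the filter on low counts through their serum values, so the tally was largely fixed in advance. Without the filter 12 of 13 were called for serum, beside 113 of all 632. The class median log2 fold change was 9.90, also with the 2 members at 0 in muscle set at their bounds. miR-184-3p, a miRNA of the cornea, lens and other epithelia, led with 1.3, 0.391, 1.59, 0.697 and 2.51% of serum 1 to 5. Its mean of 1.3% was the larger part of the class share, and it also entered the sensory-organ sum above. It was at most 0.00112% of a muscle library (log2 9.89 ± 0.63). miR-205-5p, of stratified epithelia, took 0.468, 0.188, 0.446, 0.166 and 0.321% of serum and at most 0.000205% of muscle. Its fitted difference was the largest of all (11.09 ± 0.52, edgeR adjusted p = 4.95e-13). It had only 0, 1, 1, 1 and 1 counts in muscle 1 to 5, so its rank beside other miRNAs near 0 in muscle is uncertain.

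The miR-200 family, which keeps cells epithelial, added smaller shares. miR-141-3p was 0.199 ± 0.103% of serum and 0.000152 ± 0.000157% of muscle (9.92 ± 0.57). miR-200b-3p had 530 counts in serum and 2 in muscle, a pooled ratio of CPM of 2091 with a 95% counting interval of 575.9 to 17309. miR-429-3p had 413 counts in serum and 0 in muscle, so it was at least 1090-fold higher in serum when 3 counts are allowed over the muscle group.

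miR-122-5p, which makes up most of the miRNA of hepatocytes, was a modest part of serum. It was 0.0202, 0.147, 0.284, 0.0825 and 0.186% of serum 1 to 5 and at most 0.000232% of muscle (log2 9.29 ± 0.79, edgeR adjusted p = 1.45e-09). miR-192-5p, of liver, gut and kidney, exceeded it with 0.724, 1.09, 1.28, 0.632 and 0.859% of serum and 0.00328 to 0.00579% of muscle (6.99 ± 0.42). miR-215-5p, which shares its seed, was 0.395 ± 0.143% of serum and 0.000129 ± 0.000189% of muscle (9.95 ± 0.57). miR-194-5p, encoded beside them, was much lower, at 0.0178 ± 0.00787% of serum (3.55 ± 0.45). All 3 tested members of this class were thus higher in serum, against 32.6% of all tested. They passed the filter on low counts through their serum values, so this tally was largely fixed in advance. Without the filter 5 of 5 were called for serum, beside 113 of all 632. miR-375-3p, of pancreatic islets and gut endocrine cells, was 0.0734 ± 0.0165% of serum and 0.000369 ± 0.00042% of muscle (6.56 ± 0.58).

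Besides miR-486, the bulk of serum came from miRNAs with broad expression. The miR-10, miR-99, miR-100 and miR-125 class took 17 ± 7.15% of serum and 4.51 ± 1.32% of muscle, and the difference came from miR-10. miR-10b-5p, of the HoxD cluster, was 3.85, 10.1, 9.82, 4.3 and 13.7% of serum 1 to 5. Muscle 1 to 5 held 0.754, 0.258, 0.819, 1.13 and 0.314% (log2 3.33 ± 0.45, edgeR adjusted p = 1.1e-06). miR-10a-5p, of the HoxB cluster, was 4.91 ± 2.43% of serum and 0.525 ± 0.231% of muscle (2.91 ± 0.42). In the same class miR-125b-5p (1.47 ± 0.542 against 0.96 ± 0.37%) and miR-125a-5p (1.38 ± 0.409 against 1.44 ± 0.572%) did not pass, with log2 fold changes of 0.10 (95% interval -0.47 to 0.68) and -0.46 (-1.04 to 0.13). miR-125b-5p was called for serum in thinned libraries (0.69, edgeR adjusted p = 0.0322) and miR-125a-5p for muscle without the filter on low counts (-0.77, edgeR adjusted p = 0.0498). In all, 4 of 9 tested members were higher in serum (32.6% of all tested) and 1 in muscle (43.7%).

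miR-191-5p, often taken as a reference miRNA in serum, was 3.95, 7.54, 5.68, 11.1 and 7% of serum and 1.46, 1.03, 2.36, 1 and 1.22% of muscle, with no overlap (2.02 ± 0.37, edgeR adjusted p = 4.57e-05). miR-16-5p, abundant in blood cells, was 2.38, 1.35, 2.08, 1.11 and 1.08% of serum against 0.0719, 0.122, 0.0729, 0.0653 and 0.139% of muscle (3.40 ± 0.38). miR-25-3p, from the host gene Mcm7, had the same fold change (3.40 ± 0.33). miR-92a-3p of the related miR-17-92 cluster held nearly equal parts, 1.97 ± 0.166% of serum and 1.9 ± 0.47% of muscle (-0.38, 95% interval -0.90 to 0.15, adjusted p = 0.201). Of the 12 tested in the miR-15/16 and miR-17-92 class, 6 were higher in serum and 1 in muscle, where 32.6% and 43.7% of all tested miRNAs were.

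Further miRNAs of other classes were serum-rich. miR-148a-3p was 2.15, 0.59, 1.82, 0.151 and 0.477% of serum, and it was 0.0279 ± 0.00576% of muscle (4.52 ± 0.47). miR-21a-5p was 0.463 ± 0.22% of serum and 0.0259 ± 0.00367% of muscle (3.54 ± 0.33). miR-126a-5p, of the endothelial gene Egfl7, was 0.604 ± 0.154% of serum and 0.0966 ± 0.0464% of muscle (2.06 ± 0.41). Its 3p arm did not pass (0.65 ± 0.36, adjusted p = 0.11), although it did with each of the 3 other scalings run.

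let-7 miRNAs, which promote differentiation and restrain growth genes, were mostly muscle-rich. The let-7 and miR-98 class was 7.74 ± 0.82% of muscle and 1.32 ± 0.723% of serum (1.02 ± 0.283% without serum 1). Of 13 tested members 12 were higher in muscle and none in serum, against 43.7% of all tested for muscle. The median log2 fold change was -2.95 (all tested -0.34), and 10 were called with library totals. let-7c-5p, the most abundant, was 2.43, 2.57, 2.16, 2.11 and 2.77% of muscle and 0.872, 0.333, 0.53, 0.205 and 0.286% of serum (-3.12 ± 0.33). let-7a-5p was 1.81, 1.76, 1.49, 1.39 and 1.98% of muscle and 0.158, 0.0422, 0.0509, 0.0636 and 0.0421% of serum (-5.20 ± 0.40, edgeR adjusted p = 2.77e-10). let-7d-5p (-4.90 ± 0.40) and let-7b-5p (-3.71 ± 0.31) followed, and miR-98-5p was the member that did not pass (-0.18). Members that differ by 1 or 2 bases can exchange reads, so the split among them is uncertain.

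Several other muscle-rich miRNAs are not restricted to muscle fibres. miR-378a-3p, from the metabolic gene Ppargc1b, was 3.45, 3.31, 4.08, 4.04 and 4.07% of muscle 1 to 5 and 0.284, 0.131, 0.254, 0.0667 and 0.119% of serum (-5.12 ± 0.35, edgeR adjusted p = 6.41e-11). miR-149-5p, from an intron of the glypican gene Gpc1, was 1.19, 1.59, 1.28, 1.44 and 0.817% of muscle. It was close to constant in serum at 0.0217, 0.0165, 0.0203, 0.0134 and 0.0189% (-6.65 ± 0.37). miR-196a-5p, of the HoxB and HoxC clusters, was 0.199, 0.209, 0.358, 0.303 and 0.279% of muscle and had 4 counts in the 5 serum libraries together (-9.39 ± 0.54, edgeR adjusted p = 4.33e-12). miR-10 and miR-196, both Hox-cluster miRNAs, thus lay on opposite sides of the comparison. miR-30c-5p was 0.873 ± 0.22% of muscle and 0.334 ± 0.0569% of serum (-1.91 ± 0.31).

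Smooth muscle and fibroblast miRNAs were split. Their class took 1.86 ± 0.248% of muscle and 0.711 ± 0.361% of serum (0.563 ± 0.166% without serum 1), with 6 of 8 tested higher in muscle (43.7% of all tested) and 1 in serum. With library totals 3 of the 8 were called for muscle, beside 35.8% of all tested. miR-145a-5p, of smooth muscle, was 0.936, 1.11, 1.42, 1.36 and 0.642% of muscle and 0.0307, 0.0245, 0.0305, 0.0158 and 0.0218% of serum (-5.98 ± 0.34). miR-143-3p, encoded beside it, held similar parts of both sources, 0.625 ± 0.142 and 0.574 ± 0.31%. Its call (-0.74 ± 0.33, edgeR adjusted p = 0.0479) was lost in 15 of the alternatives run, among them those without serum 3 or 5 or muscle 1, 2 or 5. miR-199a-3p (-1.46) and miR-199b-3p (-1.51) have the same mature sequence and count as 1 result. miR-143-5p, the minor arm, had 0 counts in serum and was at least 16.8-fold lower there (3 counts allowed over the serum group).

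Imprinted Dlk1-Dio3 miRNAs, a cluster expressed from the maternal chromosome, were muscle-rich in 5 of 5 tested members (median log2 -2.49), against 43.7% of all tested (-0.34). miR-127-3p led with 0.712, 0.555, 0.608, 0.667 and 0.815% of muscle against 0.277, 0.115, 0.156, 0.0952 and 0.122% of serum (-2.76 ± 0.31). miR-434-3p followed at 0.0415 ± 0.0109% of muscle and 0.0115 ± 0.00997% of serum (-2.49 ± 0.40). Of the 53 listed miRNAs of this class 48 were too low to test, and miR-411-5p and miR-540-3p passed the filter through their muscle values. Without the filter 22 of 53 were called for muscle and 0 for serum (median log2 -1.47, all tested that way -0.28). Of 19 listed neural miRNAs 4 were tested, and 3 of these were higher in muscle (43.7% of all tested), 2 with library totals. Without the filter on low counts 18 neural miRNAs were tested, with 4 higher in serum and 4 in muscle. Of all 632 tested that way, 113 were higher in serum and 157 in muscle. Their class sums overlapped, at 0.111 ± 0.0836% of serum and 0.0856 ± 0.0131% of muscle. Without serum 1 the order of the means turned, with 0.0777 ± 0.0435% of serum.

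**Figure D4:**
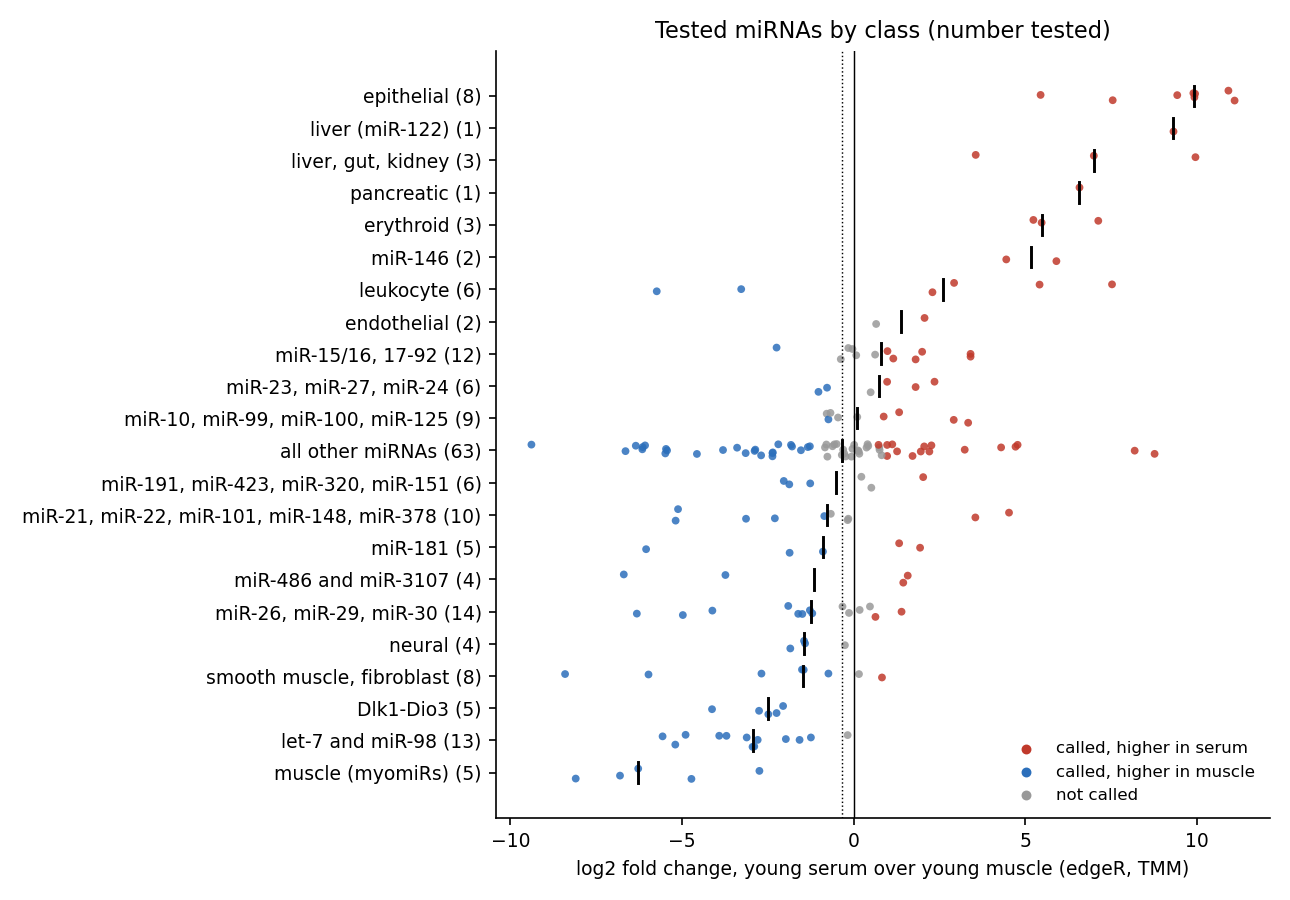
Each point is a tested miRNA placed by its log2 fold change, young serum over young muscle (edgeR, TMM), in rows by class with the number tested; black ticks are class medians and the dotted line the median of all tested, -0.34. Epithelial, liver, erythroid and miR-146 rows lie wholly to the right, the myomiR and Dlk1-Dio3 rows wholly to the left, and most other families straddle 0.

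Among other abundant miRNAs several differences were small or their calls depended on the processing, while the call of miR-26a-5p held. miR-22-3p was 7.73, 3.76, 6.05, 1.98 and 2.46% of serum and 5.39, 5.78, 3.64, 4.59 and 5.34% of muscle, overlapping ranges. Its call (-0.86 ± 0.32, edgeR adjusted p = 0.0198) was lost in 5 alternatives, among them DESeq2's size factors, library totals and the fit without serum 5. miR-181a-5p (2.13 ± 1.05 against 2.67 ± 0.468%) and miR-27b-3p (1.53 ± 0.635 against 1.72 ± 0.135%) were called for muscle at -0.90 and -0.78, and both calls were lost with library totals. miR-30d-5p, at 2.32 ± 0.379% of serum and 1.1 ± 0.343% of muscle (0.63 ± 0.26), was called for serum but lost the call in 7 alternatives, 5 of them without a single library (serum 2 or muscle 1, 2, 4 or 5). Its percentages did not overlap between the groups, and it was also called for serum in old (1.21) and disuse (0.97) libraries. miR-30a-5p did not pass (0.47, 95% interval -0.04 to 0.97). miR-26a-5p, at 2.86 ± 0.432% of muscle and 1.73 ± 0.541% of serum, kept its call for muscle (-1.28 ± 0.28).

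The 2 arms of a hairpin can both give mature miRNAs, and their ratio within a library needs no scaling between sources. Of 46 hairpins with at least 20 counts over both arms in every library, 30 had another 3p to 5p ratio in serum than in muscle (65.2%; exact permutation test, adjusted p under 0.05), 14 towards 3p and 16 towards 5p in serum. In 19 of the 27 called hairpins with the same leading arm the minor arm was scarcer in serum, and in 8 it was less scarce. Both tallies include minor arms near 0, whose ratio depends on the 0.5 added. Among the 19, miR-146b and miR-143 had 0 minor-arm counts in every serum library. miR-10a, miR-29a, miR-99a, miR-140, miR-191 and miR-3107 had 0 to 3, and miR-27b had 0 to 4. Among the 8, miR-127 had 0 or 1 per serum library, and let-7b had 2 or 3. let-7g, miR-15b and miR-744 had 0 to 3, with 0 to 2 for miR-15b per muscle library. For miR-486, mean log2 of 3p over 5p was -10.43 ± 0.68 in serum and -5.45 ± 0.47 in muscle (difference -4.99, exact permutation p = 0.00794, adjusted p = 0.0146). The other called hairpins named here had the same values, except miR-10a, miR-27b, miR-99a and miR-191 (exact permutation adjusted p = 0.027 to 0.0365). Serum 1 to 5 had 34, 23, 19, 50 and 8 counts of miR-486-3p, and muscle 1 to 5 had 438, 4133, 632, 763 and 4144. In miR-3107 the 3p arm had 1 count in all of serum and 724 in muscle (difference -6.54, which depends on the 0.5 added to each arm).

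miR-133a went the other way, with a smaller gap between the sources in the minor arm than in the main arm. Mean log2 of 3p over 5p was 11.17 ± 0.76 in muscle and 5.71 ± 0.62 in serum, with 1 to 13 counts of miR-133a-5p per serum library. miR-150 also had relatively more of its minor 3p arm in serum (difference 4.30), from 1 to 6 counts per library. The differences of miR-143 (3.90) and miR-744 (3.81) rest on minor arms with 0 to 3 serum counts per library. Better counted were 3 hairpins in which the leading arm itself differed, named after their values were seen. For miR-423, log2 of 3p over 5p was -1.42, -0.84, -1.47, -1.40 and -1.53 in serum 1 to 5, on 119 to 507 counts of the 5p arm. In muscle 1 to 5 it was 1.28, 1.66, 1.14, 0.46 and 1.07, on 178 to 1694 counts of that arm. The 5p arm thus led in every serum library and the 3p arm in every muscle library. For miR-199a the mean was -0.30 ± 0.72 and 2.01 ± 0.28, and for let-7d 0.19 ± 0.88 and -1.79 ± 0.45; in both, serum libraries lay on either side of 0.

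**Figure D5:**
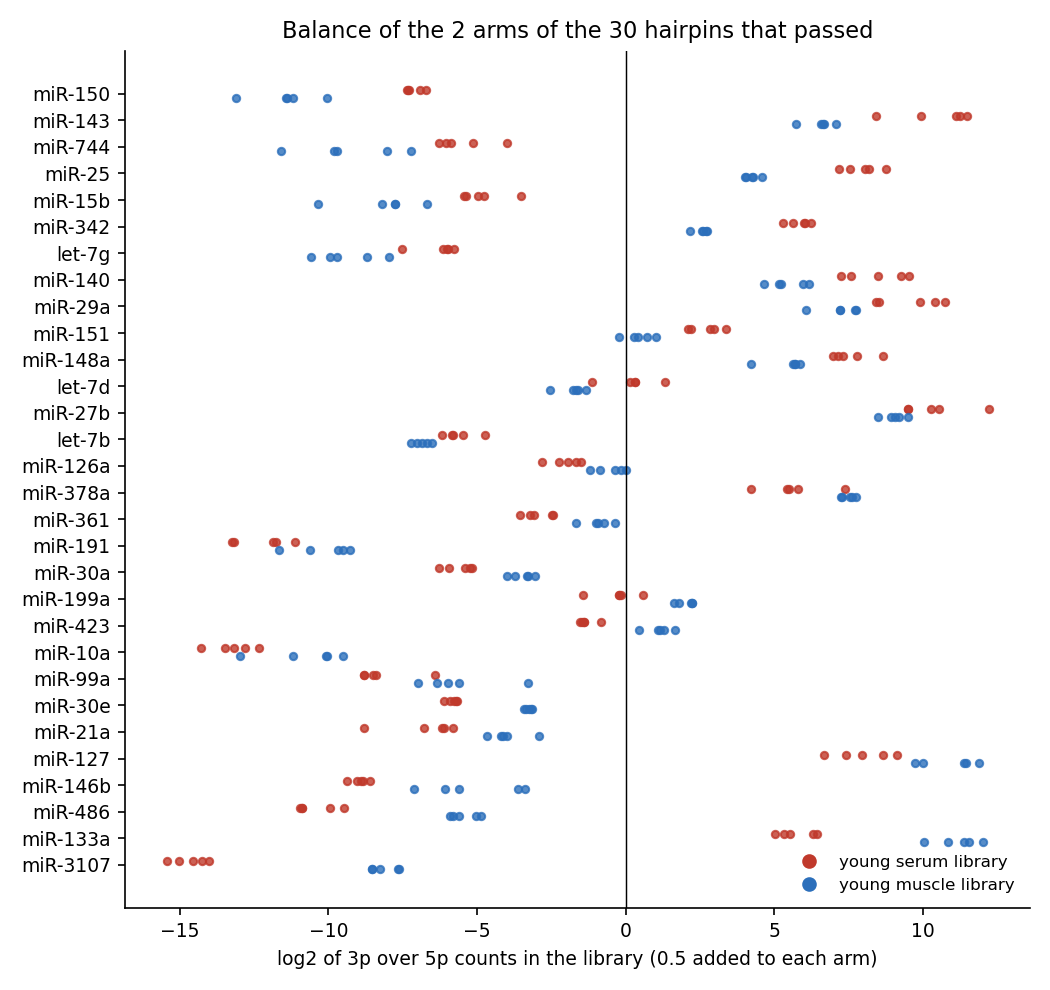
For the 30 hairpins that passed, points give log2 of 3p over 5p counts (0.5 added to each) in each young serum and young muscle library; 0 means equal arms. miR-423 lies to the left of 0 in all 5 serum libraries and to the right in all 5 muscle libraries, and most other hairpins keep their leading arm.

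The comparison was repeated in old and in disuse libraries, which share none with the young ones. In old libraries 316 miRNAs were tested and 69.3% called, 24.7% for serum and 44.6% for muscle. In disuse libraries 86.5% of those tested were called, 38% for serum and 48.4% for muscle. Of the 62 young serum calls 56 passed the same way in old and 61 in disuse libraries. Of the 83 young muscle calls 78 passed in old libraries and 76 of 76 tested in disuse libraries, with 7 not tested there. In neither repeat did any pass in the opposite direction. miR-199a-5p, of fibroblasts, was the serum call that passed in neither.

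Fold changes in the 3 conditions are given side by side, and the differences between conditions were not tested. For miR-133a-3p the log2 fold change was -8.10 in young, -8.12 in old and -8.14 in disuse libraries. miR-486-5p stood at 1.44, 1.71 and 1.57, and miR-451a at 7.12, 6.74 and 7.56. miR-146a-5p was at 5.90, 7.05 and 6.22, miR-10b-5p at 3.33, 4.31 and 4.71, and miR-192-5p at 6.99, 8.25 and 7.54. miR-205-5p stood at 11.09, 11.74 and 8.32. On the muscle side let-7a-5p was at -5.20, -6.01 and -5.87, miR-150-5p at -3.28, -3.66 and -3.54, and miR-149-5p at -6.65, -7.11 and -6.83. miR-196a-5p was at -9.39 in young and -7.79 in disuse libraries. It had 0 counts in the 4 old serum libraries and was at least 481.5-fold lower there than in old muscle (3 counts allowed over the serum group). miR-22-3p and miR-143-3p, whose young calls depended on the scaling, were not called in old libraries (-0.38 and -0.57). In disuse libraries both were called for muscle (-0.84, edgeR adjusted p = 0.000552, and -0.44, edgeR adjusted p = 0.0496).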

How the data were processed

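Small RNA libraries of young serum and young muscle (5 each) were analysed, with old and disuse libraries as a repeat. The authors deposited whole-number counts per mature miRNA and library, made with Bowtie and mm10 per the submitters' processing notes. Neither the version of Bowtie nor the treatment of reads with several matches is stated in the sources used here. The table lists 1183 miRNAs. 488 have 28 values instead of 29, and the 695 complete ones were used. Which value those 488 lack is uncertain. For the alternative with all 1183 miRNAs they were read from the right, which placed the gap among the serum columns. Their serum cells then summed to 0. All 29 columns were taken as counts. No column lacked a sample.

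Differences were tested with edgeR 4.0.16 in R 4.3.3 (TMM, filterByExpr by group, glmQLFit and glmQLFTest, Benjamini-Hochberg, adjusted p under 0.05), separately in young, old and disuse libraries. The test was first tested on simulated data. The SE is the size of the log2 fold change over the square root of F. Evenness and arm balance were compared by two-sided exact permutation over libraries (scipy 1.17.1). Class shares were described without a test. Every pair of libraries of a group differed beyond counting noise (chi-square per degree of freedom 28 to 332 over 20 pairs). Alternatives were DESeq2 1.42.0, limma-voom (limma 3.58.1), other scalings, filters, libraries thinned to 68813 counts, a replicate block, and each library left out.

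The classes and members were chosen with earlier results of these data known. Named are the 15 most abundant miRNAs of each source, the 10 most abundant calls of each direction whose groups do not overlap, the 5 largest fold changes each way, tested members of the blood, muscle and liver classes, up to 4 of each other class, and the 6 called hairpins with the largest arm difference. Of 695 names 602 matched RefSeq sequences, without several of the most abundant miRNAs, and the matched ones hold 42.2 to 64.7% of serum and 34.8 to 39.3% of muscle counts. A planned comparison of base composition was therefore void and was not run. Some mature sequences are not printed here.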

Additional observations from a re-analysis of the deposited data

Results flagged for a closer look

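Of 197 groups of 5 values (class shares and named miRNAs in each source), 11 had a single library far from the other 4, where chance gives about 1 in 20. The number flagged is thus near what chance gives, and the cases below are a description. In young serum, library 1 was the high one in 4 cases. It had 8.64% of its counts in miRNAs outside every class (2.41 to 3.21% in the others), 0.158% let-7a-5p (0.0421 to 0.0636%), 0.0584% miR-144-5p (0.012 to 0.0189%) and 0.395% miR-181b-5p (0.0832 to 0.157%).

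In young muscle, library 4 was high in miR-451a at 0.0116% (0.00266 to 0.00522% in the others), in miR-434-3p at 0.0608% (0.0346 to 0.0376%) and in miR-423-5p at 0.145% (0.065 to 0.0868%), and low in the miR-23, 27 and 24 class at 1.7% (1.99 to 2.09%). Muscle 3 was high in miR-125a-5p at 2.44% (1.02 to 1.36%) and in miR-23a-3p at 0.119% (0.0709 to 0.0829%). Muscle 5 was low in the smooth muscle and fibroblast class at 1.43% (1.91 to 2.06%). The parts of these libraries in the differences between the sources were not tested beyond leaving each out.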

How the results depend on the processing

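Without the filter on low counts 270 of 632 tested miRNAs were called, 113 for serum and 157 for muscle. In libraries thinned to 68813 counts 97 of 119 were called, 54 for serum and 43 for muscle, from fewer miRNAs tested. Leaving out each library gave 147 to 156 calls, 59 to 69 for serum and 81 to 91 for muscle. The correlation of deviations between same-numbered serum and muscle libraries was -0.185 to 0.031. This cannot show whether they came from 1 animal, since serum and muscle of an animal need not vary together. A fit with a replicate block gave 59 calls for serum and 83 for muscle. No called miRNA changed direction. Of miRNAs that were not called, some changed sign: miR-92a-3p (0.06 with library totals, 0.17 thinned), miR-128-3p (0.21 and 0.46), miR-125a-5p (0.07 thinned), miR-125b-5p (-0.15 without a filter) and miR-151-3p (-0.02 without a filter). Leaving out each library, the ranges were -0.08 to 0.20 for miR-125b-5p (below 0 without muscle 2 or 4), -0.95 to 0.07 for miR-128-3p (above 0 without serum 5) and -0.09 to 0.37 for miR-151-3p (below 0 without serum 4). Some of these passed under an alternative: miR-125b-5p in thinned libraries (0.69), miR-125a-5p without a filter (-0.77), miR-128-3p without serum 4 (-0.95), and miR-151-3p with library totals (0.62) and in thinned libraries (0.77).

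Evenness depended on the few leading miRNAs. Without miR-133a-3p, miR-486-5p and miR-3107-5p the serum minus muscle differences reversed for the effective number (-5.24), the leading share (6.2) and the expected number of miRNAs (-11.1), and the last was -7.05 with all 1183 miRNAs. Without miR-3107 the effective number (9.35) and the expected number (17.6) passed. Leaving out each library, the difference in effective number ranged from 5.6 to 10.6 and passed without serum 4 (10.6) or serum 5 (9.26), and that in expected number ranged from 2.42 to 19 and passed without serum 5. The miR-486 and miR-3107 class was 7.38% of muscle without miR-3107. The causes were not tested. Serum depth limits what can be said of miRNAs below about 10.3 to 43.6 CPM.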

Other observations

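The serum libraries carried miRNAs known from the retina, inner ear and nervous tissue (chosen after their values were seen). miR-182-5p and miR-183-5p, cut from 1 transcript of sensory cells, were 3.78 and 2.19% of serum 1 and 0.141 to 0.485% and 0.148 to 0.543% of serum 2 to 5. Muscle had 0.000373 to 0.00246% and 0.000745 to 0.00243%. miR-96-5p of the same cluster had 52 counts in serum and 0 in muscle. miR-124-3p, a miRNA of neurons, was 0.114% of serum 1, 0.00057% of serum 2 and 0 in the other 3 serum libraries and in the 5 muscle libraries.

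Ratios between related miRNAs, also chosen after their values were seen, differed between the sources. let-7a-5p over let-7c-5p was 0.096 to 0.31 in serum and 0.657 to 0.746 in muscle. miR-142-5p over miR-142-3p averaged 80.8 ± 36.3 (at least 54.2) in serum and 3.24 ± 1.43 (at most 5.2) in muscle, where each arm had few counts. miR-10b-5p over miR-10a-5p was 1.24 to 2.06 in serum and 1 to 1.5 in muscle, overlapping ranges. miR-196b-5p, a Hox-cluster relative of miR-196a-5p, was 0.0302 ± 0.00426% of muscle with 7 counts in serum, and miR-615-3p of the HoxC cluster was 0.0473 ± 0.0115% of muscle with 6 counts in serum.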
